A study of Rattus norvegicus with 12 samples.

Results

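The livers of female (XX) and male (XY) rats were compared 6 h after both sexes had received dexamethasone, a synthetic agonist of the glucocorticoid receptor. The comparison is between 6 of the 12 arrays of the study, 3 of females and 3 of males. Its error was estimated from all 12 arrays. It is described across 11786 autosomal genes that passed a filter on dim probes, of 24292 genes measured in all. Of the remaining ones 359 are X- or Y-linked and 12147 have no chromosome in the reference tables used here, and over all 24292 the fit called 556. All rats were adrenalectomized Sprague-Dawley animals 8 to 10 weeks old, and the females were in diestrous 1. The dexamethasone groups received 1 mg/kg intraperitoneally, and the vehicle groups, used here as the reference for how far a sex difference was already present, received 400 µl of phosphate-buffered saline. Adrenalectomy removes the animal's own corticosterone, so every group lacked the adrenal glands and the vehicle groups lacked adrenal glucocorticoid. Each array carried liver RNA pooled from 3 animals. The p-values therefore rest on the spread among 3 pools per group, give no spread of single animals, and in a whole-liver sample fewer cells of a type and less RNA per cell cannot be told apart.

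Rat liver is among the most sexually dimorphic tissues outside the reproductive tract. Growth hormone is secreted in pulses in male rats and more continuously in females, and this pattern acts through STAT5B and through repressors such as BCL6 and CUX2 to set many sex-biased genes of steroid and drug metabolism. The glucocorticoid receptor is a second nuclear regulator of the same tissue: it binds DNA after hormone binding and acts on genes of gluconeogenesis, amino acid catabolism and inflammation, partly together with STAT5. The study asked which hepatic genes glucocorticoids regulate in a sex-dependent way.

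Values below are log2 signals of 1 probe per gene, relative to the 75th percentile of the array, so 0 is the signal of that percentile and a difference of 1 is a doubling. Between 53.0% and 67.8% of the spots on the 6 arrays were well above background, the lowest share being that of male array 3. The median SD among the 3 arrays was 0.22 in females and 0.29 in males. Female arrays 1 and 2 were alone on their slide, and male arrays 1 and 2 lay on 2 further slides. Among the dexamethasone arrays only array 3 of each sex shared a slide with the other sex, on slide 5. Female arrays 1 and 2 were also the only arrays of scan day 3, and male arrays 1 and 2 were scanned on day 1. A fixed slide or scan day term therefore takes up female arrays 1 and 2. In fits with such a term the level of dexamethasone females rests on female 3 alone. No probe matched Xist or the Y-linked genes Ddx3y, Eif2s3y, Kdm5d, Usp9y and Sry. X-linked Eif2s3, a translation initiation factor subunit, read 1.98 to 2.20 in the 3 females and 1.23 to 1.31 in the 3 males. A probe that the array calls Utx, and the reference table lists under Y-linked Uty, read -0.38 to -0.10 in females and -1.15 to -1.04 in males.

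After dexamethasone, 293 of 11786 autosomal genes (2.49%) differed between the sexes at a Benjamini-Hochberg adjusted p under 0.05 in limma's moderated test, adjusted over all genes measured. Females had 158 genes higher (1.34%) and 135 lower (1.15%). Of these, 20 of the higher genes were below background in males and 23 of the lower ones in females. With such genes at their bounds, 116 of the higher and 110 of the lower genes were at least 2-fold apart, and 11 and 13 were at least 32-fold apart. A further 2 called genes were below background in both sexes after dexamethasone. These 2 are left out of the counts and medians at the bounds. The median fitted difference was 1.48 among the genes higher in females and -1.87 among those lower, or 1.36 and -1.57 at the bounds, against -0.0041 over all autosomal genes. In each of the 293 genes the 3 female and the 3 male arrays did not overlap, whereas 23.9% of all autosomal genes showed such a separation. Leaving out 1 array at a time lowered the counts most for the dexamethasone arrays. Without female array 1 there were 79 higher and 79 lower genes, without female 2 there were 82 and 84, and without female 3 there were 91 and 91. The counts were 106 and 82 without male 1, 90 and 87 without male 2, and 102 and 99 without male 3. A total of 129 genes passed whichever of the 12 arrays was left out.

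Among the genes lowest in females were those of the α2u-globulins, the male urinary lipocalins that carry pheromones and are made in the liver. The 6 genes of this family called on chromosome 5 had fitted differences from -8.84 to -8.48. Mup4 read -5.44, -6.73 and -4.21 in females, below background on each array, and 3.20, 2.71 and 4.21 in males, a difference of -8.84 ± 0.88 (SE, adjusted p = 0.00052). Because females gave no measured level, this is at least 219-fold lower. Obp3, an α2u-globulin, read -4.76, -6.48 and -3.06 in females, 1 of them above background, against 3.70, 3.32 and 4.89 in males. Mup5 was brighter in both sexes, at 1.29, -1.42 and 2.74 in females and 9.03, 9.13 and 9.91 in males (difference -8.48 ± 0.87). Mup4l1, Mup4l3 and Mup4l4 differed by -8.64, -8.72 and -8.60. The 3 female pools were uneven in these genes: female 2 was the lowest and female 3 the highest in all 6, while the male pools spanned less. With slide as a fixed block, Mup4l3 differed by -7.95 and no longer passed (adjusted p = 0.065), and the other 5 passed.

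These genes are near-copies of each other, so their probes were compared with each other. The 60-base probes of Mup4 and Obp3 are shown because they align base by base, with the bases that differ in capitals. The probes of Mup4l3 and Mup4l1 are shown with the run they share in capitals.
Mup4: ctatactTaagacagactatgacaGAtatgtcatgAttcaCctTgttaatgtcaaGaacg
Obp3: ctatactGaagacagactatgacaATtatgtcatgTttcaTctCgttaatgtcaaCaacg
Mup4l3: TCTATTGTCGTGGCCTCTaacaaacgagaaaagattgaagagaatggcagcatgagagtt
Mup4l1: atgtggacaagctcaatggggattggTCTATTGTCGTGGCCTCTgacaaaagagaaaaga
The Mup4 and Obp3 probes match at 53 of 60 positions, and the Mup4l3 and Mup4l1 probes share 18 bases in a row. Each of these readings may hold RNA of more than 1 α2u-globulin gene, and they are not independent measurements. The other 13 pairs among the 6 probes share at most 9 bases in a row. This does not make their readings separate, since the probes were not compared with the transcripts. Whether a probe bound RNA of another α2u-globulin gene was not tested for any pair.

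Male-specific cytochromes P450 lay in the same range. Cyp2c11, the main male testosterone hydroxylase of rat liver, read 7.92, 7.59 and 7.60 in males and -0.51, -1.47 and -0.58 in females. The groups lie far apart, at a difference of -8.56 ± 0.34 (376-fold, adjusted p = 3.5e-06). Cyp2c13, a second male-specific steroid hydroxylase, read 8.45, 8.35 and 8.85 in males and 0.32, -1.30 and 0.52 in females (-8.71 ± 0.47, 418-fold). Both were well above background on all 6 arrays. Cyp3a2, the male form of CYP3A, read 8.17, 8.03 and 8.04 in males. Its females were scattered, at 3.53, 2.52 and -0.79, and its difference of -6.33 ± 1.17 (adjusted p = 0.020) did not pass without male 1, 2 or 3 (adjusted p = 0.065, 0.067 and 0.059) or without female 2 (0.052). Cyp3a18, Cyp2a2, Cyp4a2 and Cyp4a8, further P450s of steroid or fatty acid hydroxylation, differed by -3.48, -3.95, -3.25 and -2.85. Across the P450 genes, 8 of 55 measured were lower in females and 4 higher, with a median difference of -0.10 over the list. That is 21.8% called, against 2.49% of all autosomal genes.

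The female counterparts were Cyp2c12 and Cyp2c7. Cyp2c12, the female-specific steroid sulfate hydroxylase, read 7.49, 7.90 and 7.65 in females and 4.42, 3.56 and 2.65 in males (4.14 ± 0.53, 17.6-fold, adjusted p = 0.0022). Cyp2c7, which hydroxylates retinoic acid, read 8.68, 8.81 and 9.33 in females, while the males spanned 0.44 to 4.45 (6.31 ± 1.03, adjusted p = 0.011). It was not called with slide as a fixed block (5.31, adjusted p = 0.11). Cyp7a1, the rate-limiting enzyme of bile acid synthesis, read 3.64, 3.40 and 3.55 in females and 1.45, 0.87 and 0.16 in males (2.70 ± 0.37, 6.50-fold, adjusted p = 0.0038; 2.77 and adjusted p = 0.065 with slide as a fixed block). It was the 1 of 19 bile acid synthesis genes called (5.26%, against 2.49% of all autosomal genes). The probe of Cyp2c11, the main male form, is shown because related CYP2C genes gave readings that run in opposite directions.
Cyp2c11: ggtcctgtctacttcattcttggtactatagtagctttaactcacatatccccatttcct
It shares at most 5 bases in a row with the probe of Cyp2c12, and among the 4 named CYP2C probes the longest shared run is 6 bases. The probes were compared with each other and not with the transcripts. Whether a probe also bound RNA of a related CYP2C gene was therefore not tested.

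Enzymes of steroid hormone metabolism were split between the sexes. Of 34 measured genes in the list of sex steroid receptors and hepatic steroid metabolism, 6 were lower in females and 3 higher. The share called was 26.5%, against 2.49% of all autosomal genes. Hsd3b5, the male 3-ketosteroid reductase of rat liver, read 3.04, 1.86 and 4.04 in males and was below background in the 3 females, at least 166-fold lower. Its neighbours Hsd3b1 and Hsd3b2, 3β-hydroxysteroid dehydrogenases, differed by -4.94, with 1 of 3 female arrays above background, and by -4.26. Sult1e1, estrogen sulfotransferase, read 1.93, 0.65 and 1.24 in males and -6.85, -6.74 and -6.39 in females, below background there, so it was at least 51.1-fold lower (adjusted p = 1.3e-06). Hsd11b1, which regenerates active glucocorticoid from its inert keto form, read 7.80, 7.57 and 7.87 in males and 5.6, 5.54 and 4.63 in females. The groups were separate, and females were 5.61-fold lower (-2.49 ± 0.25, adjusted p = 0.00059). Srd5a1, steroid 5α-reductase, went the other way: 6.67, 6.62 and 7.07 in females against 3.56, 4.27 and 2.84 in males, 9.39-fold higher (adjusted p = 0.00069). Akr1c3, a hydroxysteroid dehydrogenase of the aldo-keto reductase family, was below background in females and at least 4.41-fold lower, and its neighbour Akr1c12 differed by -3.62. With slide as a fixed block neither passed (adjusted p = 0.055 and 0.11).

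The hydroxysteroid sulfotransferases were the mirror image of Sult1e1. Sult2a1 read 5.54, 6.16 and 7.10 in females and -0.12, -0.38 and -1.92 in males (7.07 ± 0.56, 135-fold, adjusted p = 0.00012). Sult2a2 and Sult2a6 were 126-fold and 53.9-fold higher in females, with no overlap between the groups. Among 50 measured conjugation enzymes 4 were higher and 5 lower in females, and the median difference was 0.00. Their share called was 18.0%, against 2.49% of all autosomal genes. The 5 lower ones were Sult1e1, the N-methyltransferase Inmt (at least 26.6-fold lower, adjusted p = 0.059 with slide as a fixed block), Sult1c3 (-3.80) and the glutathione transferases Gstm3 (-3.12, adjusted p = 0.064 with slide as a fixed block) and Gstm7 (-1.4, adjusted p = 0.052 without female 2).

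The largest fitted differences toward females were in A1bg and Akr1b7. A1bg, a plasma glycoprotein of the immunoglobulin fold, read 7.02, 7.59 and 8.99 in females and -5.69, -3.27 and -5.52 in males, where 1 array was above background (12.69 ± 1.19, adjusted p = 0.00036). Akr1b7, an aldo-keto reductase, read 6.86, 6.55 and 6.97 in females and -6.60, -4.37 and -4.74 in males, again with 1 male array above background (12.03 ± 1.00, adjusted p = 0.00015). With most male arrays at background, the fitted differences of both genes are not a measured fold. Akr1b8, 4 genes away from Akr1b7 in the reference order, was 126-fold higher in females. Adh1-ps1, a locus the reference lists as an alcohol dehydrogenase pseudogene, was below background in males and at least 67.5-fold higher in females, and its neighbours Adh6 and Adh4 differed by 2.39 and 1.14, the latter with an adjusted p of 0.14 without male 2. A second probe of Adh4 differed by 0.41 and did not pass (adjusted p = 0.73). Of 45 measured oxidoreductases and esterases 5 were higher and 1 was lower in females (13.3% called, against 2.49% of all autosomal genes). Ces2a, a carboxylesterase, was among the higher ones at 5.86, 6.10 and 6.12 against 3.35, 2.63 and 2.43 (9.31-fold).

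**Figure D1:**
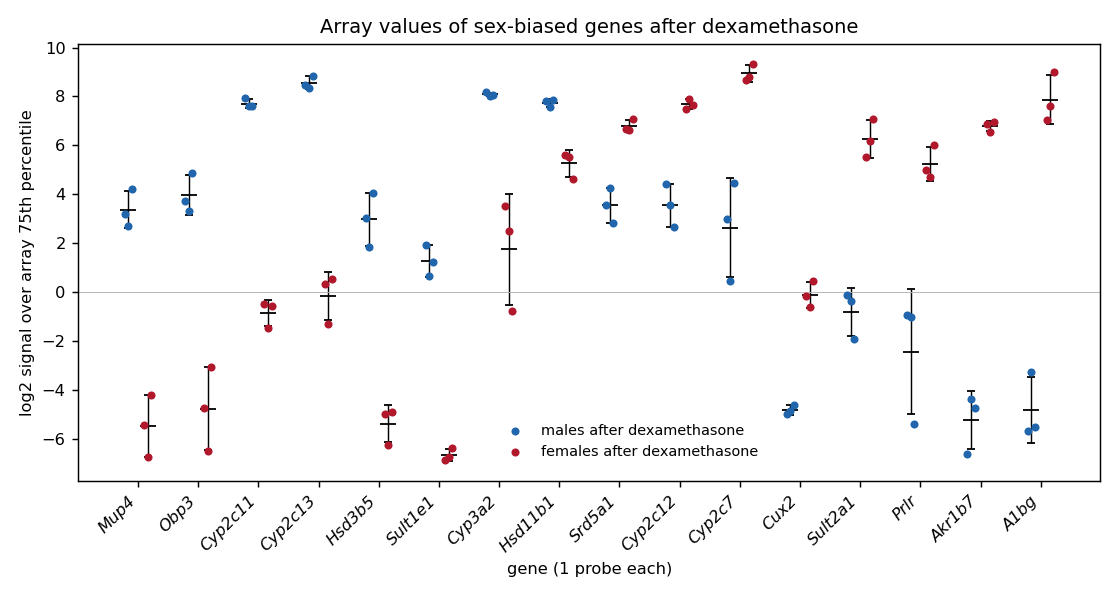
Log2 signal relative to the array's 75th percentile (y axis) for 16 genes (x axis) on the 3 male (blue) and 3 female (red) arrays after dexamethasone; points are arrays, horizontal bars the mean and vertical bars the SD of 3 arrays. The groups are separate in each gene, and the female arrays of Cyp3a2 and the male arrays of Prlr and Cyp2c7 are the most scattered.

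Transporters, channels and surface proteins also differed. Ust5r and Slc22a8, organic anion transporters, were below background in females and at least 93.0-fold and 22.9-fold lower. Slc10a2, the sodium-dependent bile acid transporter, was lower at -4.37, -4.33 and -5.25 against -1.25, -1.32 and -1.59 in males (9.60-fold), with 2 of 3 female arrays above background. Slc22a8 and Slc10a2 were the 2 called genes among 34 measured transporters of drugs, organic anions and bile salts. They make up 5.88% of that list, against 2.49% of all autosomal genes called. Slc3a1, a subunit of the cystine transporter, differed by -4.60 ± 0.78 (adjusted p = 0.012), and by -3.59 with slide as a fixed block (adjusted p = 0.082). Without male 2 its adjusted p was 0.055. Gfra1, the receptor of a neurotrophic factor, was at least 25.3-fold lower in females. In the other direction, Cd36, a fatty acid uptake receptor, read 2.19, 2.43 and 2.79 in females and -0.06, -0.54 and -2.22 in males (3.41 ± 0.58, adjusted p = 0.056 without female 3). Lifr, the leukemia inhibitory factor receptor, was 40.1-fold higher in females, and Tmem30b, a subunit of lipid flippases, was 11.1-fold higher. A second probe of Tmem30b differed by 0.78 (adjusted p = 0.52). Called genes had 80 other probes in all, of which 75 had the same sign, 22 passed in the same direction and 0 in the opposite one.

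A pair of lists collects genes known for sex bias in rat liver. They were drawn up with results of these arrays known, so their counts describe and do not test. Of 36 measured male-biased genes 20 were lower and 0 higher in females, with a median difference of -2.95 (-2.63 with genes below background set at their bounds). Of 34 measured female-biased genes 13 were higher and 0 lower, with a median of 0.79. Called were 55.6% of the male-biased and 38.2% of the female-biased list, against 2.49% of all autosomal genes. The other members were not called in limma's test. Among them male-biased Cyp7b1, the oxysterol hydroxylase, read -2.87, -2.96 and -3.15 in females and -0.55, -1.38 and -0.94 in males (-2.03 ± 0.63, adjusted p = 0.14). Female-biased Cyp3a9 read 0.19, 0.58 and 3.1 in females and 0.80, 0.47 and 0.16 in males. These groups overlap, and female 3 alone stands high.

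Calls among the receptors and regulators of the growth hormone axis all went toward females. Of 34 measured genes of the growth hormone, prolactin and STAT5 pathway 4 were higher in females and 0 lower. The share called was 11.8%, against 2.49% of all autosomal genes. The list's median difference was 0.02. Prlr, the prolactin receptor, read 5.01, 4.71 and 6.03 in females and -0.92, -1.02 and -5.40 in males, with 2 of 3 male arrays above background (7.70 ± 0.99, adjusted p = 0.0023). Cux2, a female-specific repressor, read -0.18, -0.61 and 0.44 in females and was below background in males, at least 16.8-fold higher in females. Onecut1 (HNF6), a liver transcription factor, read 4.80, 5.0 and 3.75 in females and 1.60, 1.94 and 1.94 in males (2.69 ± 0.49, adjusted p = 0.019). It did not pass without female 2 (adjusted p = 0.085) nor with slide as a fixed block (1.5, adjusted p = 0.22). Trim24, a female-biased cofactor, differed by 1.90 ± 0.28.

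The transducers, feedback inhibitors and further regulators named next were not called, which does not show equal levels in the sexes. Ghr, the growth hormone receptor, read 4.55, 4.59 and 5.18 in females and 4.32, 3.83 and 3.87 in males, which do not overlap (0.77 ± 0.28, adjusted p = 0.22). Stat5b overlapped (0.43 ± 0.26), as did Igf1, the main circulating growth factor induced by growth hormone (0.12 ± 0.30). The feedback inhibitors Socs2 and Cish read lower in each female array than in any male array, by -0.86 ± 0.20 and -0.92 ± 0.38, with adjusted p = 0.059 and 0.28. Groups without overlap were found in 23.9% of all autosomal genes. Bcl6, the male-biased repressor, read 3.31, 3.22 and 3.09 in females against 4.94, 4.94 and 5.0 in males. These 6 values are tight, but the fit shares 1 error with the vehicle arrays and gave -1.75 ± 0.62 (adjusted p = 0.20). Hnf4a, a hepatocyte master regulator, overlapped between the sexes. Esr1, the estrogen receptor α, differed by 0.52 ± 0.18 (adjusted p = 0.19) near the background, with 2 of 3 male arrays above it.

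The glucocorticoid receptor gene Nr3c1 and the glucocorticoid targets Fkbp5, Per1 and Tat were not called between the sexes. Nr3c1, the receptor, read 1.69, 1.37 and 1.4 in females and 1.41, 1.29 and 1.45 in males. The groups overlap (0.10 ± 0.17). Fkbp5, a chaperone strongly induced by glucocorticoids, read 5.16 and 5.06 in females 2 and 3, the spot of female 1 being left out as an outlier marked by the scanner software, and 5.20, 5.21 and 5.69 in males (-0.26 ± 0.20, adjusted p = 0.59). Against the vehicle group of the same sex, Fkbp5 was 4.54 higher in females and 4.16 higher in males (adjusted p = 3.5e-06 and 3.2e-06). Per1, a clock gene and glucocorticoid target, read 1.08, 1.16 and 0.71 in females and 1.54, 1.39 and 1.52 in males. The sexes do not overlap in Per1, as in 23.9% of all autosomal genes. Per1 rose with dexamethasone by 2.71 and 3.03 (adjusted p = 5.8e-06 and 3.9e-06). Tat, tyrosine aminotransferase, overlapped between the sexes (5.09, 5.31 and 4.79 against 5.96, 5.35 and 4.93).

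Within the list of 45 measured glucocorticoid-induced genes 4 were lower and 1 higher in females (11.1% called, against 2.49% of all autosomal genes), and the median difference was -0.24. Besides Sult1e1, the lower ones were Sgk1, G6pc1 and Cebpb. Not all of them rose with dexamethasone here. Against vehicle of the same sex, Sult1e1 differed by -1.63 in males (adjusted p = 0.0049) and G6pc1 by -2.79 in females (adjusted p = 6.6e-05). Sgk1 rose by 2.52 in males and 2.20 in females, and Cebpb by 1.01 and 0.19 (adjusted p = 0.0091 and 0.57). Sult1e1 was already lower in females after vehicle, at a fitted -9.04. Sgk1, a kinase controlling ion transport, read 2.75, 2.72 and 1.74 in females and 5.14, 5.02 and 4.58 in males (-2.51 ± 0.28, 5.69-fold), and it was also lower in females after vehicle (-2.19). Cebpb, a transcription factor, read 2.53, 2.51 and 2.34 against 3.52, 3.76 and 3.50 (-1.13 ± 0.22, adjusted p = 0.026). It did not pass without male 2 (adjusted p = 0.11) nor with slide as a fixed block (adjusted p = 0.13). The gene higher in females was Cdkn1c, a cell cycle inhibitor (1.02 ± 0.22, adjusted p = 0.042), which did not pass without female 1 (adjusted p = 0.15). Its other probes differed by 0.63, 0.43 and 0.78 and did not pass (adjusted p = 0.097, 0.33 and 0.27).

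Among the glucose output genes G6pc1 was called and Pck1 was not. G6pc1, the catalytic subunit of glucose-6-phosphatase, which releases glucose from the liver, read 4.66, 4.26 and 3.74 in females and 6.70, 6.66 and 6.59 in males. Females were 5.39-fold lower (-2.43 ± 0.26, adjusted p = 0.00074), and the difference was -2.69 with slide as a fixed block and -2.85 on slide 5. A second probe of G6pc1 differed by -2.06 (adjusted p = 0.075). Pck1, the other rate-controlling gene of gluconeogenesis, read 4.04, 3.78 and 5.08 in females and 5.27, 5.35 and 6.27 in males (-1.33 ± 0.40, adjusted p = 0.13). The groups do not overlap in Pck1, as in 23.9% of all autosomal genes. Slc16a1, a lactate carrier, differed by -1.42 (adjusted p = 0.13 without male 1). The list of 41 measured genes of gluconeogenesis, glycolysis and glycogen had 0 higher, 2 lower and a median of -0.03. Its share called was 4.88%, against 2.49% of all autosomal genes.

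The lipid lists held between 0 and 3 called genes each. None of 30 measured genes of fatty acid and triglyceride synthesis was called, and 25 read higher in females and the median was 0.38, and 0.83 with slide as a fixed block. Among 52 genes of fatty acid oxidation and ketogenesis 1 was higher and 2 were lower (5.77% called, against 2.49% of all autosomal genes), with a median of -0.10. The lower ones were Cyp4a2 and Acsm3, a medium-chain acyl-CoA synthetase (-2.20). Acot5, a peroxisomal thioesterase, was 3.62-fold higher in females (adjusted p = 0.011, and 0.052 without female 1). A second probe of Acot5 differed by 1.76 (adjusted p = 0.10). Among 28 genes of cholesterol synthesis and uptake only Scap, the escort of the sterol-sensing factors, was called (-0.90 ± 0.15, adjusted p = 0.013; adjusted p = 0.15 with slide as a fixed block and 0.065 without female 1). That is 3.57% of the cholesterol list. Of 38 genes of lipid droplets, lipid uptake and apolipoproteins 2 were higher and 1 was lower (7.89%), with a median of 0.05. Besides Cd36, Fabp2, the intestinal-type fatty acid binding protein, read 1.30, 1.29 and 2.08 in females and 0.26, 0.48 and 0.22 in males (1.24 ± 0.28, adjusted p = 0.048, and 0.13 without male 1). Fabp7, the brain-type binding protein, was lower at 5.02, 4.91 and 5.14 against 6.04, 5.91 and 6.4 (-1.09 ± 0.21, adjusted p = 0.024, and 0.23 with slide as a fixed block). Rdh16, a retinol dehydrogenase, was 8.65-fold lower and Lrat, which esterifies retinol in stellate cells, 2.46-fold lower in females (adjusted p = 0.0073, and 0.071 with slide as a fixed block). A second probe of Lrat differed by -0.61 (adjusted p = 0.52). Of 16 stellate cell and fibroblast markers, Lrat among them, 12 read lower in females, with a median of -0.32, and their part in this difference was not tested.

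Among the immune lists, 12 genes were called higher in females and 0 lower, in counts of 2 to 4 a list that stand beside 1.34% of all autosomal genes called higher. Of 15 markers of Kupffer cells, the liver macrophages, 14 read higher in females with 0 called (median 0.25, and -0.31 with slide as a fixed block), and their part in these counts was not tested. In the antigen presentation list 3 of 28 measured genes were higher and 0 lower, with a median of 0.38 (10.7% called). Psmb8, an immunoproteasome subunit, read 3.76, 3.76 and 4.74 in females and 2.60, 2.33 and 2.41 in males (1.63 ± 0.25, 3.1-fold, adjusted p = 0.0065). Tap1 and Tap2, the subunits of the peptide transporter, differed by 1.17 ± 0.24 and 0.75 ± 0.16, and their adjusted p of 0.035 and 0.044 became 0.14 without female 2 and 0.15 without male 2, and 0.057 and 0.056 with slide as a fixed block. Of 40 interferon response genes 3 were higher (7.5%): Bst2 (0.94), Trim21 (1.34, below background in males and at least 1.12-fold higher) and the GTPase Igtp (1.51, at -1.22, -1.11 and -0.87 against -2.61, -3.09 and -2.04). With slide as a fixed block these gave adjusted p = 0.064, 0.13 and 0.059, and they did not pass without male 1 (0.076), female 2 (0.13) and female 3 (0.078). Of 53 inflammatory mediators 2 were higher (3.77%). Cxcl14, a chemokine, read 0.51, 0.16 and 0.42 in females and -1.46, -1.53 and -1.5 in males (1.86 ± 0.20, 3.62-fold, adjusted p = 0.00083), and it was also higher in females after vehicle (2.26). Tlr3, a receptor of double-stranded RNA, differed by 1.47 ± 0.30 (adjusted p = 0.032), and did not pass without female 1 (0.12) nor with slide as a fixed block (0.24). Among 74 acute phase, complement and coagulation genes 4 were higher and 0 lower (5.41%), namely Kng1 (1.85), Kng2 (1.75), C4a (1.69) and F7 (0.99). Kng1 and Kng2 encode kininogens, and the omission that cost most gave adjusted p = 0.048 and 0.067, both without female 3. For C4a and F7 it gave 0.15 without female 2 and 0.15 without male 2.

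The apoptosis list had 2 called genes of 26 measured (7.69%, against 2.49% of all autosomal genes), the cell cycle list 2 of 43 (4.65%) and the immediate early list 1 of 35 (2.86%). Bcl2l11 (BIM), a death-promoting BCL2 relative known as a glucocorticoid target in lymphocytes, read -2.55, -2.51 and -1.58 in males and was below background in females, at least 4.54-fold lower (-2.71 ± 0.30, adjusted p = 0.0010; 0.059 with slide as a fixed block). Fas, a death receptor, was 2.44-fold higher in females (adjusted p = 0.062 without female 1). Ccne1, a cyclin of the G1 to S transition, was 2.30-fold lower (adjusted p = 0.011, and 0.055 without female 2), and Atf3, a stress factor, was 3.36-fold lower (adjusted p = 0.041, and 0.15 without female 1). A second probe of Ccne1 differed by -1.06 (adjusted p = 0.10). The 82 measured ribosomal, respiratory chain and proteasome genes had 0 calls with a median of 0.05, and each was well above background on the 6 arrays.

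**Figure D2:**
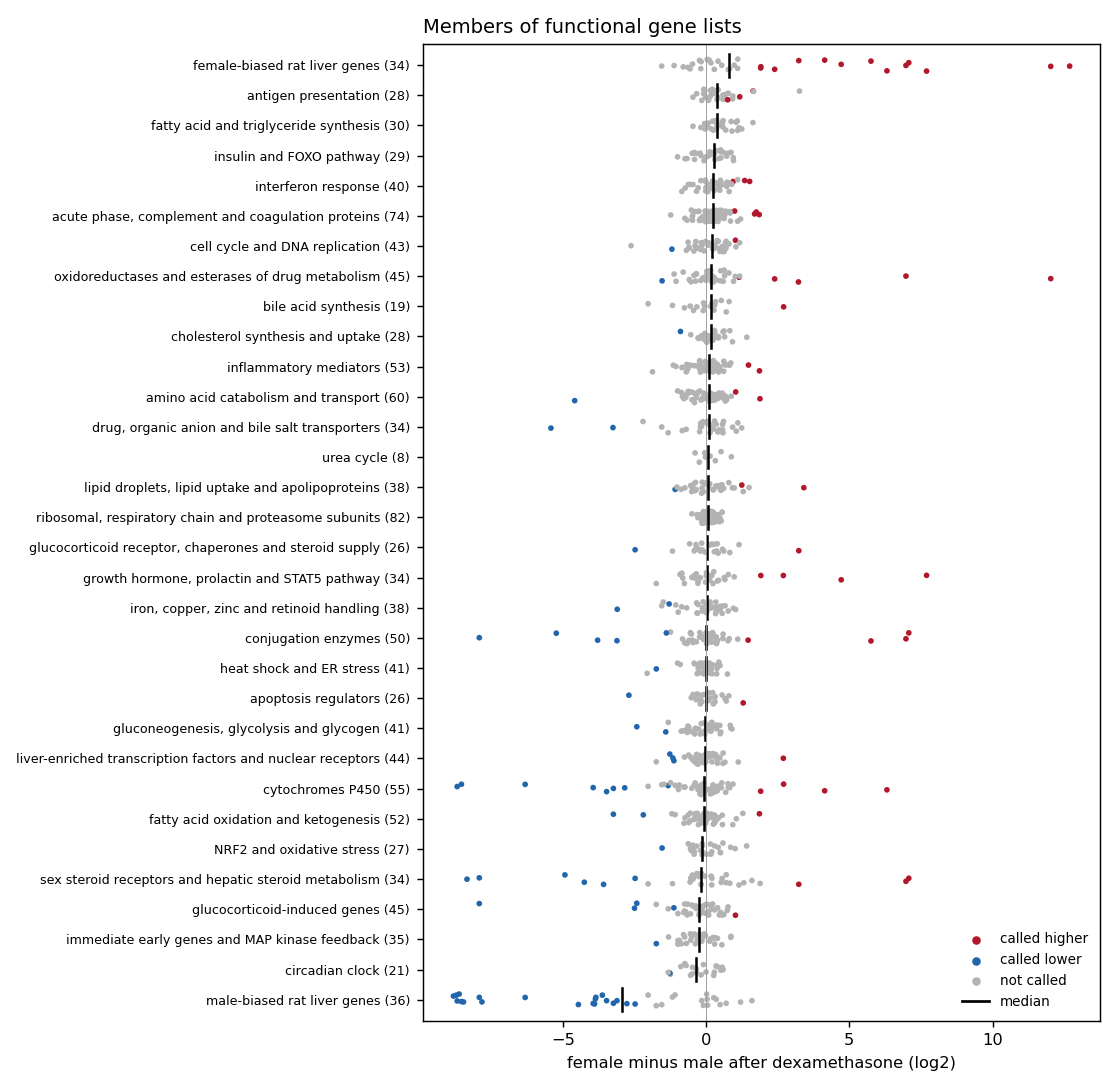
Female minus male difference after dexamethasone on the log2 scale (x axis) for the members of functional gene lists (y axis, measured members in brackets); red and blue points are called higher and lower in females, grey points are not called, and black bars are medians. The male-biased list has its median at -2.95 and the female-biased list at 0.79, while the other lists lie between -0.35 and 0.38.

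The liver identity of the samples and the share of other cells were read from marker lists. All 13 hepatocyte markers were well above background on the 6 arrays, with 0 called and a median difference of 0.06. Alb, albumin, read 10.45, 10.42 and 10.36 in females and 9.83, 9.80 and 9.99 in males (0.53 ± 0.25, adjusted p = 0.33). The summed linear signal of the Kupffer cell markers was 72.3 to 143 in females and 63.3 to 159 in males, that of endothelial markers 23.4 to 48.4 and 40.0 to 55.9, and that of stellate cell and fibroblast markers 49.6 to 82.4 and 75.9 to 88.4. None of 15 Kupffer, 15 endothelial, 13 T and NK cell, 5 B cell, 5 neutrophil or 8 erythroid markers was called. Among 16 stellate cell and fibroblast markers Lrat was called lower and 12 read lower, and among 15 bile duct markers Prom1 was called higher (12.9-fold). The shares called were 6.25% and 6.67%, against 2.49% of all autosomal genes. Bile duct keratin Krt19 differed by -0.46 and Epcam by -0.47, both not called; these 2 were named after their values were seen.

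Genes named for the exocrine pancreas went in both directions. Of 14 measured members 2 were higher and 2 lower in females (28.6% called, against 2.49% of all autosomal genes). Cpa1, a carboxypeptidase, read -1.86, -1.71 and 1.86 in females, was below background in males and was at least 12.3-fold higher in females, with an adjusted p of 0.0049 that became 0.11 with normexp background correction. Spink1, a trypsin inhibitor, and Cela1, an elastase, were lower in females by -2.78 and -1.91, the latter with an adjusted p of 0.079 without male 3. A second probe of Spink1 differed by -4.91 (adjusted p = 0.14). The other 10 of 14 measured members were not called, among them Cpb1 (0.37), Ctrb1 (-0.92) and Prss2 (0.47), and 9 further members, Prss1, Pnlip, Clps and Rnase1 among them, were too dim to be tested; the members not called were named after their values were seen. The summed signal of this list was 15.1 to 35.9 in females and 11.9 to 13.2 in males. Cpa1, Spink1 and Cela1 were called in the same direction after vehicle. Whether pancreatic tissue had a part in the Cpa1 reading was not tested.

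Most of the large differences were present without the drug. After vehicle, 234 autosomal genes (1.99%) differed between the sexes in arrays that share no sample with the dexamethasone comparison. A total of 120 genes were called in the same direction in both, 41.0% of the calls after dexamethasone and 51.3% of those after vehicle. Of these, 69 were lower and 51 higher in females, with median differences of -3.11 and 2.29 after dexamethasone and -3.47 and 2.31 after vehicle. A single called gene, Nrcam, a neuronal adhesion protein, had the opposite direction after vehicle (1.70 after dexamethasone and -1.80 after vehicle); it was below background in dexamethasone males and at least 1.02-fold higher in females. The others were not called after vehicle. Of the 106 such genes higher in females 89 were also higher after vehicle, with a median of 1.34 after dexamethasone and 0.43 after vehicle. Of the 66 lower ones 48 had the same sign, with medians of -1.29 and -0.23.

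**Figure D3:**
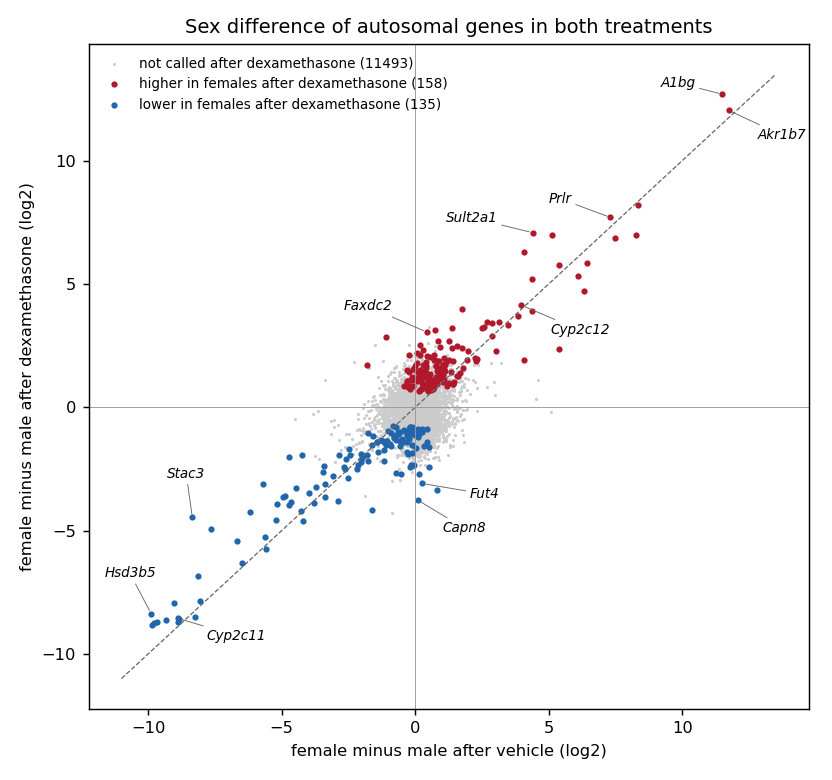
Female minus male difference (log2) of each autosomal gene after dexamethasone (y axis) against the same after vehicle (x axis); red and blue points are called after dexamethasone, grey points are not, and the dashed line marks equal differences. Sex-specific genes such as Cyp2c11 and A1bg lie near the line, and Capn8, Fut4 and Faxdc2 lie near 0 after vehicle.

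A sex difference that depended on the drug itself was tested by the interaction of sex and treatment, which called 4 autosomal genes (0.0339%), 3 of which are described here. It had an unadjusted p under 0.05 in 1086 of them. Fut4, a fucosyltransferase of leukocyte and epithelial glycans, read 3.14, 2.74 and 3.30 in males after dexamethasone and 0.43, -0.04 and -0.49 in females. After vehicle it read -1.02, -1.35 and -0.83 in males and -0.65, -0.82 and -0.95 in females. Dexamethasone thus raised it by 4.13 in males and 0.77 in females, and the sex difference went from 0.26 to -3.09 (interaction -3.35 ± 0.36, adjusted p = 0.037). Capn8, a calpain protease, read -2.17, -1.53 and -2.01 in males after dexamethasone and was not well above background on any array of the other 3 groups. It passed the filter through dexamethasone males alone, so its interaction of -3.85 ± 0.47 (adjusted p = 0.037) is a fitted value and no measured size. Females were at least 5.64-fold lower after dexamethasone.

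Faxdc2, a member of the fatty acid hydroxylase family, ran the other way. It read 3.39, 3.17 and 3.76 in females and 0.17, 0.33 and 0.68 in males after dexamethasone, against -0.54, -0.59 and -0.05 in females and -0.73, -0.91 and -0.83 in males after vehicle. The sex difference grew from 0.43 to 3.04 (interaction 2.61 ± 0.30, adjusted p = 0.037). None of the 4 genes passed with slide or scan day as a fixed block, where the interaction called 5 and 2 other genes. With 1 array left out, the interaction called 0 autosomal genes in 9 of 12 cases. It called 3 without dexamethasone female 3, 2 without vehicle female 3 and 1 without dexamethasone female 1. Without the filter on dim probes it called 0, and with another background correction (normexp) it called 19.

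**Figure D4:**
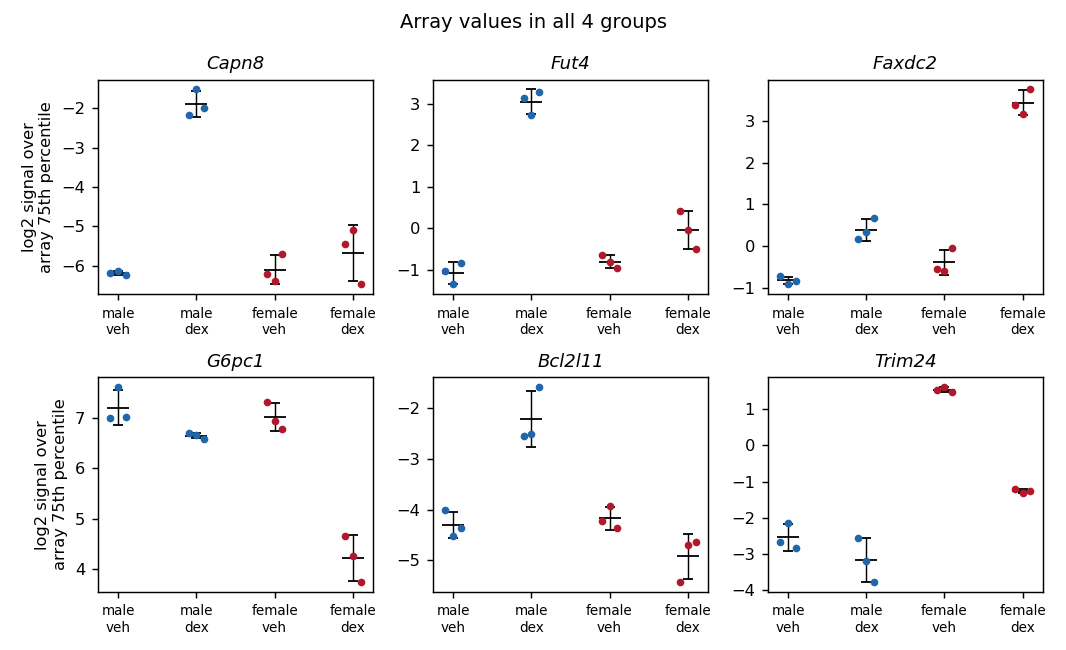
Log2 signal relative to the array's 75th percentile (y axes) of 6 genes in males and females after vehicle (veh) or dexamethasone (dex); points are arrays, horizontal bars the mean and vertical bars the SD of 3 arrays. Capn8 and Fut4 are high in dexamethasone males, and Faxdc2 in dexamethasone females.

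G6pc1 and Bcl2l11 came close to the threshold of the interaction without passing it. They were not alone, since other called genes, Scap among them, had the same adjusted p of 0.088. G6pc1 was 7.02 in vehicle females and 7.21 in vehicle males on average, and with dexamethasone it fell by 2.79 in females (adjusted p = 6.6e-05) and differed by -0.56 in males (adjusted p = 0.17) (interaction -2.24, adjusted p = 0.088). Bcl2l11 differed by 0.13 after vehicle and -2.71 after dexamethasone (interaction -2.83, adjusted p = 0.088). Its females were below background after dexamethasone, at least 4.54-fold lower, so the -2.71 and the interaction are fitted values and no measured sizes. Several large male-biased genes had a smaller difference after dexamethasone, again without passing the interaction: Stac3, a muscle and liver adaptor, went from -8.35 to -4.47 (adjusted p = 0.21), Hsd3b1 from -7.63 to -4.94 (adjusted p = 0.26) and Rdh16 from -5.69 to -3.11 (adjusted p = 0.25). Trim24 went from 4.09 to 1.90 (adjusted p = 0.12) and Sult2a1 from 4.40 to 7.07 (adjusted p = 0.34).

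Called genes that lie side by side were counted along each chromosome. Among 11766 pairs of measured autosomal genes that adjoin each other in the reference order, unmeasured genes left out, 32 pairs (0.272%) were called in the same direction. They form 20 runs of 52 of the 293 called genes, and members of a run can lie up to 27 positions apart in the reference order. The longest run holds the 6 α2u-globulin genes on chromosome 5. Chromosome 1 carries Sult2a6, Sult2a1, Sult2a2 and Selenow, a selenoprotein, as well as Cyp2c7 and Cyp2c12, all higher in females. Chromosome 2 carries Hsd3b5, Hsd3b2, Hsd3b1 and Hao2, a peroxisomal hydroxyacid oxidase, all lower, and Adh1-ps1, Adh6 and Adh4, all higher. The kininogen genes Kng1, Kng2 and Kng2l1 on chromosome 11 and Tap2, Psmb8 and Tap1 on chromosome 20 are runs of 3. Pairs of 2 members include Cyp3a18 and Cyp3a2, Cyp4a8 and Cyp4a2, Spink1l and Spink1, and Akr1b8 and Akr1b7. Over the chromosomes the share of called genes went from 1.05% on chromosome 3 to 3.75% on chromosome 2.

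Promoters of 98 of the 114 named called genes are in the RefSeq tables of rat build GRCr8, from 250 bases before to 50 after the start. They were searched for TTCNNNGAA, the core that STAT5 binds, and ACANNNTGT, the core that the glucocorticoid receptor binds. Both motifs read the same on both strands, and each promoter shown holds 1 of them only. TTCNNNGAA was present in 7.32% of 123 promoters of genes higher in females and in 5.26% of 114 promoters of genes lower in females, against 8.64% of 26266 autosomal promoters. ACANNNTGT was present in 6.50% and 6.14%, against 6.57%. The promoters of 4 genes that hold a match are shown as examples of strongly sex-biased genes, with the match in capitals. A1bg, on the minus strand of chr7:94387447-94387746, and Cyp4a8, on the minus strand of chr5:133970177-133970476, hold TTCNNNGAA. Cyp3a2, on the minus strand of chr12:14343808-14344107, and Hsd3b1, on the minus strand of chr2:188864645-188864944, hold ACANNNTGT.
A1bg: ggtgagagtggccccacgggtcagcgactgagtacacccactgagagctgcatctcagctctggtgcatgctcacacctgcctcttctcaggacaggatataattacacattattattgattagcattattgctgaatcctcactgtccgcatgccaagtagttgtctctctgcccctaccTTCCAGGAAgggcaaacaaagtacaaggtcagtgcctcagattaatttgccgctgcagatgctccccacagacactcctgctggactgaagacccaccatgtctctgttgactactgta
Cyp4a8: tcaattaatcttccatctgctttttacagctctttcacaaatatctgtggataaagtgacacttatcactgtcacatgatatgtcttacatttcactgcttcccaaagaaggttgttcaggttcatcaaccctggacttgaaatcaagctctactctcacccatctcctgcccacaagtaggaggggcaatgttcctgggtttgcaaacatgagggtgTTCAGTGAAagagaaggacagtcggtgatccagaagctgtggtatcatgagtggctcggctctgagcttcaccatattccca
Cyp3a2: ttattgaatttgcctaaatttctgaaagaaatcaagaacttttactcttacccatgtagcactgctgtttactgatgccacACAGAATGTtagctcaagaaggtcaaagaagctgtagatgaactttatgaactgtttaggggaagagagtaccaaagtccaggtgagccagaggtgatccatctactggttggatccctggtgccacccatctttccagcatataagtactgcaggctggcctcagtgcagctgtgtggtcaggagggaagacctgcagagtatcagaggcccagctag
Hsd3b1: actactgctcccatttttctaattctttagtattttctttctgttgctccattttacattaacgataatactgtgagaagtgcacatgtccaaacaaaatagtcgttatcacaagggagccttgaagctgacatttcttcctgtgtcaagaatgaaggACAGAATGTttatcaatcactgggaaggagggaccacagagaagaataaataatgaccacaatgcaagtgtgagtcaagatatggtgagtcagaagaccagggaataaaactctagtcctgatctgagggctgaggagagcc
Counted from the start site, the matches begin at -69 in A1bg, -32 in Cyp4a8, -169 in Cyp3a2 and -92 in Hsd3b1. The promoters of Cyp2c11, Cyp2c12, Cyp2c13, Fut4, Capn8, Faxdc2 and G6pc1 hold neither motif in this window.

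Because slide and sex overlap in part, each difference was also read with slide in the model. As a fixed block, slide takes up female arrays 1 and 2, and the female level rests on female 3 alone. Of the 293 called genes 128 passed with slide as a fixed block, which called 121 higher and 102 lower genes in all. With slide as a random block 282 passed, among 279 higher and 210 lower genes. On slide 5, female 3 against male 3, the direction of the 293 is fixed by their choice, since the groups do not overlap in them. The median ratio of that difference to the one over all arrays was 1.08. Female 3 and male 3 also enter the difference over all arrays, so this ratio is no independent check. Cyp2c11 differed by -8.18 there, Fut4 by -3.79, Faxdc2 by 3.08 and Srd5a1 by 4.23. Cyp3a2 differed by -8.83 on slide 5 against -6.33 over all arrays, and female 3 was the lowest female. With slide as a fixed block Sult1e1 had an adjusted p of 0.00034, Cux2 0.0015, Cyp2c12 0.0020, Faxdc2 0.0044, Srd5a1 0.0067, Capn8 0.0080, Hsd11b1 0.0085, Fut4 0.011 and Cyp2c11 0.012. What slide contributed to the calls lost under the block was not tested. It cannot be told apart there from the female level resting on female 3 alone.

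**Figure D5:**
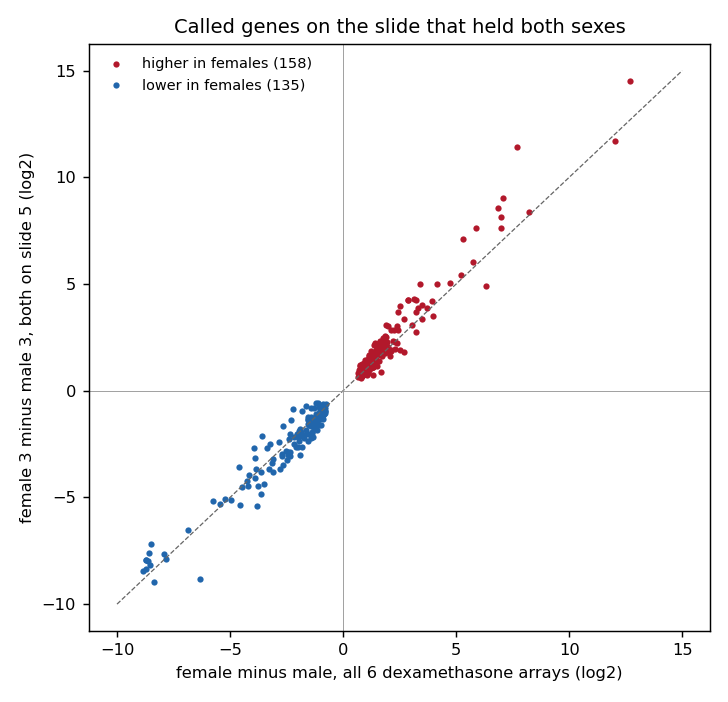
Difference between female 3 and male 3, both on slide 5 (y axis, log2), against the female minus male difference over all 6 dexamethasone arrays (x axis, log2) for the 293 called autosomal genes; red is higher and blue lower in females, and the dashed line marks equal values. The sign of each point is fixed by the choice of genes, whose groups do not overlap, and the median ratio of the y to the x value is 1.08. Female 3 and male 3 are part of both axes, so the ratio is no independent check.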

How the data were processed

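RNA pooled from 3 animals per array was labelled with Cy3 and hybridised to 12 Agilent whole-genome rat arrays, 3 for each of 4 groups. The deposited processed signal is an intensity, background-subtracted by Agilent Feature Extraction 9.1, per the submitters' processing notes, and the deposited spot means and local backgrounds are intensities as scanned. The authors' value table was found to be log10 of that signal, with its scaling between arrays unstated. The genome build of the array annotation is not given in the sources used here.

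Log2 of the processed signal minus the array's 75th percentile was used. Control spots and 211 outlier spots were left out. Probes that cleared the background call on fewer than 3 of 12 arrays were dropped, and each gene was read from its brightest probe left. Of 41012 probes, 20391 matched a RefSeq gene of build GRCr8. The 4 groups were fitted together in limma 3.58.1 (lmFit and eBayes, R 4.3.3), with Benjamini-Hochberg adjustment over 24292 genes and a threshold of 0.05. The number of arrays limits the precision. The script was tested on simulated data, in which 21.9% of 2-fold and 63.2% of 4-fold changes were called. A gene that was not called may therefore still differ. The members and gene lists were chosen with earlier results of these data known. Named were the 20 largest called differences each way, up to 6 called members of each list, a set of regulators, genes called by the interaction and called neighbours; any other is said to be so. Where a group had no array above background, the fold is a lower bound: the dim group was set, per array, at the higher of the probe's own signal and the lowest signal well above background. Some results, a gene called by the interaction among them, are not reported here.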

Additional observations from a re-analysis of the deposited data

Results flagged for a closer look

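The sex difference after dexamethasone differed from that after vehicle in Capn8, Fut4 and Faxdc2 by the interaction term of limma's fit. It was -3.85 (log2) for Capn8, -3.35 for Fut4 and 2.61 for Faxdc2, each from 3 arrays per group, with an adjusted p of 0.037 for each. Capn8 and Fut4 were high in dexamethasone males and Faxdc2 in dexamethasone females, in 3 of 3 arrays each. The value for Capn8 is a fitted one, since the other 3 groups were not above background, and after dexamethasone females were at least 5.64-fold lower. None of these genes passed with slide or scan day as a fixed block.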

How the results depend on the processing

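Of 114 named genes that were called, 75 passed in each leave-one-out fit and 43 did not pass with slide as a fixed block. After dexamethasone 158 genes were higher in females in the fit as reported, 104 without the filter on dim probes, 103 with the 6 arrays alone and 279 with slide as a random block. Lower genes numbered 135 as reported, 110 with the 6 arrays alone and 210 with slide as a random block. Of the 293 called genes 175 were also called with the 6 arrays alone. Leaving out 1 array gave 79 to 174 higher and 79 to 157 lower genes. After vehicle 234 genes were called, 149 with slide as a fixed block, 378 as a random block, 377 with scan day as a block, which was chosen after seeing the data, and 149 to 230 with 1 array left out. The interaction called 4 genes, 19 with normexp, 0 without the filter, 5 with slide as a fixed block and 2 with scan day as a block, neither holding any of the 4, and 0 to 3 with 1 array left out. Among the named genes, those that reversed were not called ones. Hnf4a gave 0.014 over all probes, 0.076 with slide and 0.070 with scan day as a fixed block. Nr3c1 gave -0.14, -0.0085 and -0.14 with slide as a fixed block, as a random block and with scan day. Igf1 gave -0.042 over all probes, -0.070 with slide, -0.064 with scan day, and -0.048 without male 1 to 0.31 without male 3. Esr1 gave -0.019 with normexp, and Cyp3a9 -0.091 without female 3 to 1.37 without female 1. The cause was not tested. Replicate numbers were not taken to pair the arrays. Deviations correlated with a median of 0.18 over 18 same-numbered pairs of arrays and -0.10 over 36 others. Those of same-numbered male and female dexamethasone arrays correlated at 0.079, 0.053 and 0.22, and with replicate number as a block 244 genes were higher and 190 lower. Signals near background limit folds to bounds.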
